A study of Mus musculus with 4 samples.

Results

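The members described here were 50 genes of the TGF-beta, BMP and SMAD pathway. They were taken from a fixed list of names, chosen with earlier results of these data known. A member was any probe set of the deposited table whose single gene symbol was on that list. Of the 50, 49 had such a probe set, 1 each, among 22180 genes with a symbol; Gdf15 was not analysed here. Expression was measured by Affymetrix arrays in 4T1Br cells, a brain-seeking mouse mammary carcinoma line derived from 4T1, grown in culture. Cells carried lentivirus with a control hairpin (shControl, 2 arrays) or with a hairpin against the m6A reader gene Ythdf3 (shYTHDF3, 2 arrays), and both groups had been selected with puromycin. The titles say 4T1 where the cell line label says 4T1Br. The hairpin sequences, the number of hairpins or clones behind a group and the time since transduction were not given in the sources used here. The labels name no separate cultures, so p-values here reflect array-to-array spread alone, which may be technical.

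As background, ligands of the TGF-beta family bind pairs of type I and type II receptor kinases at the cell surface. TGF-beta and activin receptors phosphorylate SMAD2 and SMAD3, BMP receptors phosphorylate SMAD1, SMAD5 and SMAD9, and these enter the nucleus with SMAD4. Secreted antagonists trap ligands, co-receptors present them, and SMAD6, SMAD7 and the SMURF ubiquitin ligases dampen the signal. In mammary carcinoma the pathway is known both for growth arrest and for invasion and metastasis. Arrays read RNA abundance, so none of the values below measure ligand release, receptor activity or SMAD phosphorylation.

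Values are on the log2 scale, and a difference is the shYTHDF3 mean minus the shControl mean with limma's standard error (SE). A gene was tested where its mean over the 4 arrays lay above 4.28, the level under which 95% of the olfactory receptor probe sets fell. This left 40 members tested, out of 13056 genes, and 9 members not above background. Those 9 were the ligand genes Bmp2, Bmp4, Bmp6 and Bmp8b, the antagonist genes Nog and Grem1, the receptor genes Acvrl1 and Bmpr1b, and Smad9. Ythdf3 itself, the targeted transcript, read 8.98 and 8.81 in shControl, against 8.21 and 8.16 in shYTHDF3 (difference -0.71, SE 0.10, limma adjusted p = 0.0355). Median values over all probe sets ran from 4.42 to 4.47 on the 4 arrays, and the number of arrays limits the precision.

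Among the members, Bmp7 rose and Fst and Tgfbr3 fell in shYTHDF3, and the other 37 tested members did not pass the limma test at an adjusted p under 0.05. The 3 calls are 7.50% of the 40, and over all genes tested 2.73% were called (1.28% higher and 1.45% lower). By unadjusted p under 0.05 the members counted 5 higher and 9 lower, 35.0% of the 40, against 22.6% of all genes. In 25 of the 40 the groups did not overlap, 11 with higher and 14 with lower shYTHDF3 values. That is 62.5% of the members, against 54.0% of all genes tested (28.3% higher and 25.7% lower). The median difference of the 40 was -0.087, and that of all genes tested was 0.0057. The median size of a difference, without its sign, was 0.20 for the members and 0.15 for all genes. As the list was chosen with earlier results of these data known, these shares describe the members and do not test them as a set.

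**Figure D1:**
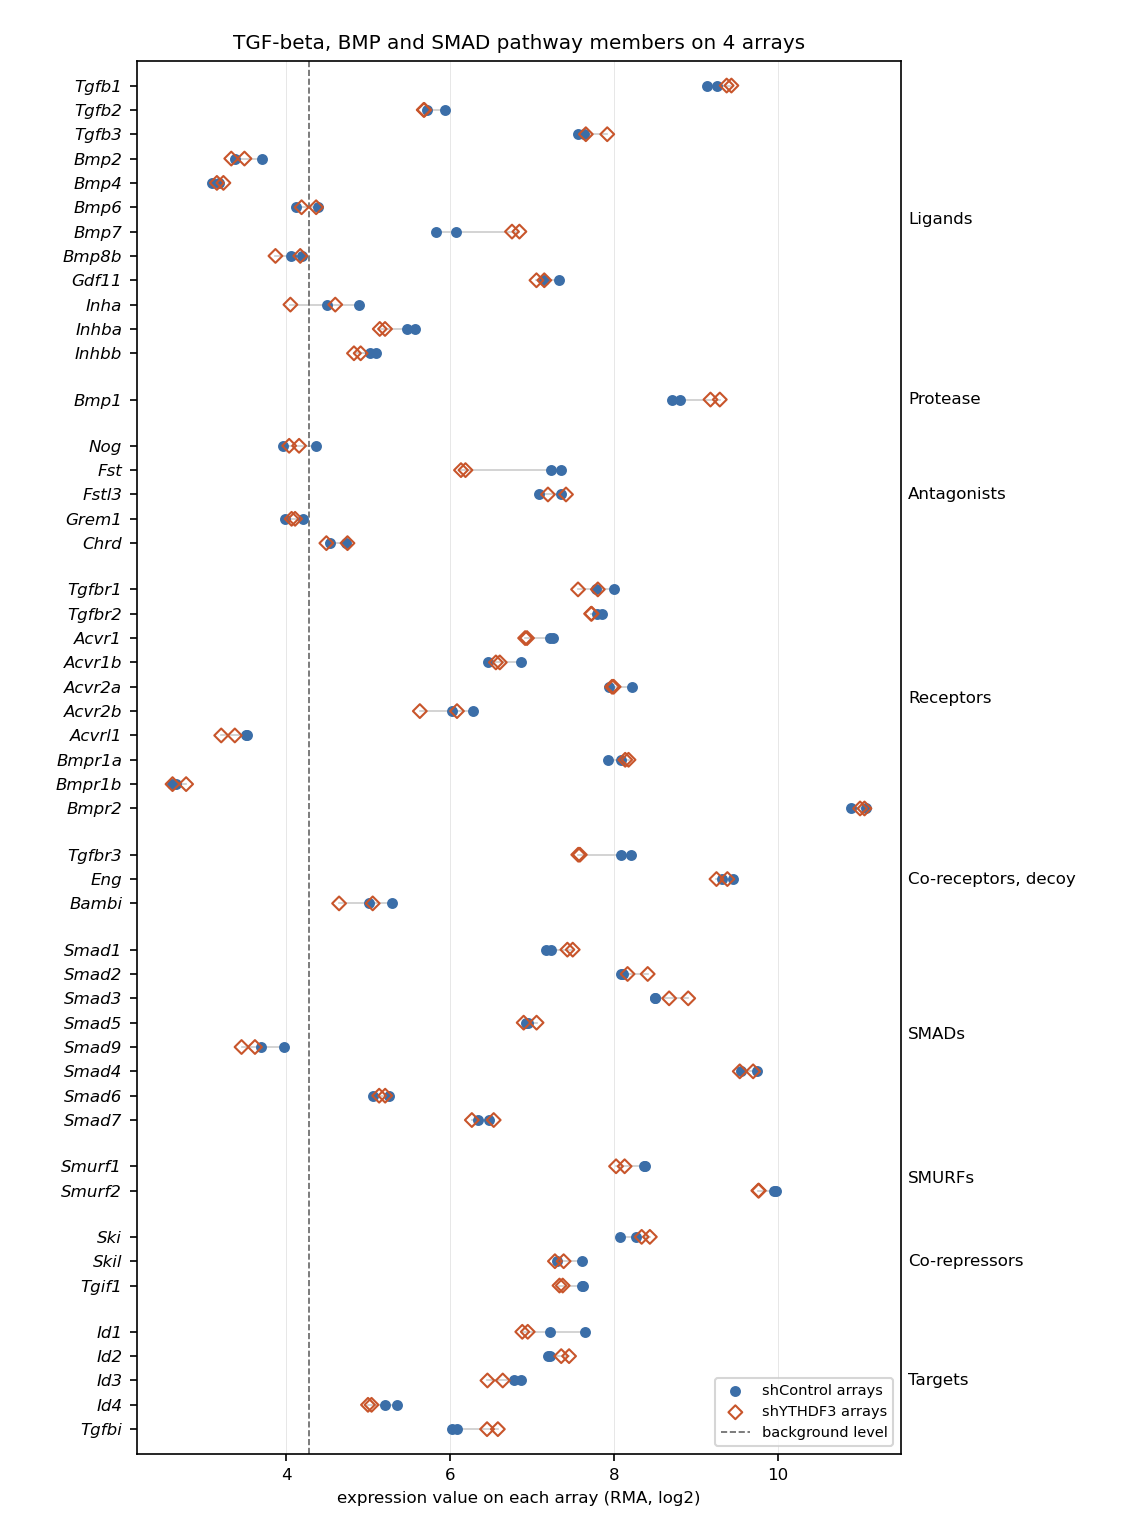
Expression value (RMA, log2, x axis) of the 49 members with a probe set on each of the 4 arrays, with shControl arrays as filled circles, shYTHDF3 arrays as open diamonds and the background level as a dashed line. The groups lie apart for Fst (7.36 and 7.23 against 6.14 and 6.19), Bmp7 and Tgfbr3, and lie on each other for Smad4, Smad6 and Smad7.

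Cell type markers were measured beside the members, and sums of their levels are on the linear scale. Of 6 markers of mammary carcinoma cells, Krt8, Krt18, Krt19 and Cdh1 were above background, Epcam and Cldn7 were not, and limma called 0. The list summed to 2617 and 2829.7 in shControl and to 3785 and 3543 in shYTHDF3, a sum set by the keratin genes Krt8 (difference 0.31) and Krt18 (0.57), while Krt19 differed by -0.53. Of 8 fibroblast markers 7 were tested (Lum was not above background), and 2 fell, Dcn (difference -2.65) and Pdgfra (-0.61), where 2.73% of all genes were called. The other 5 did not pass and went both ways, Pdgfrb at 0.21, Col1a1 at 0.10, Col1a2 at -0.05, Col3a1 at -0.23 and Thy1 at -0.44. The list's sum, 1051 and 1012 against 639 and 652, is thus mostly that of Pdgfra and Dcn. Endothelial markers (Pecam1, Kdr, Tie1 and Emcn not above background, 2 of 6 above) summed to 102 and 106 against 105 and 99.5. The leukocyte sum, 226 and 251 against 155 and 166, moved mostly with Cd68 (difference -0.72, limma adjusted p = 0.0547). Ptprc, Adgre1, Itgam, Cd3e and S100a8 were not above background. Of these, S100a8 read 4.59 and 3.85 in shControl, against 3.23 and 3.20 in shYTHDF3. The part of other cell types in the members' differences was not tested.

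Ligand genes were the first group, with 8 of 13 tested, 1 rising and 7 not passing, where 2.73% of all genes were called. Bmp7, which encodes a bone morphogenetic protein that signals through SMAD1 and SMAD5, was the riser. On probe set 17395041 the shControl arrays gave 6.08 and 5.84, and the shYTHDF3 arrays gave 6.85 and 6.76. Both shYTHDF3 values lay above both shControl values. The difference was 0.85 (SE 0.12, limma adjusted p = 0.0327), which put the shYTHDF3 level at 180% of the shControl level. In bulk RNA, more cells that express a gene and more of its RNA per cell cannot be told apart.

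The activin and inhibin subunit genes were measured beside it. Inhba encodes the beta-A subunit of activin and read 5.47 and 5.57 in shControl, against 5.21 and 5.14 in shYTHDF3, without overlap. Its difference of -0.34 (SE 0.09) did not pass (limma adjusted p = 0.115). Inhbb, the beta-B subunit gene, read 5.03 and 5.10 against 4.91 and 4.83, a difference of -0.19 (SE 0.09). Inha, the alpha subunit gene that makes inhibin, read 4.50 and 4.89 against 4.60 and 4.05, and its groups overlapped. None of these 3 subunit genes passed the test, although each group mean was lower in shYTHDF3.

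The genes of the TGF-beta ligands themselves had groups that did not overlap, as in 54.0% of all genes tested, and none passed. Tgfb1 read 9.26 and 9.13 in shControl, against 9.43 and 9.38 in shYTHDF3, a difference of 0.21 (95% interval -0.03 to 0.45). Tgfb3 differed by 0.19 (interval -0.10 to 0.48) and Tgfb2 by -0.15 (interval -0.42 to 0.12). Gdf11, a ligand that acts through activin receptors, differed by -0.14 (interval -0.40 to 0.13). These 4 did not pass, and the interval of each holds 0. The ligand genes Bmp2, Bmp4 and Bmp8b read between 3.09 and 4.19 on every array, under the background level. Bmp6, from 4.12 to 4.39, had 2 single values above it and a mean that was not.

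Bmp1 carries the name of a ligand, yet its product is a secreted metalloproteinase that trims procollagens and cleaves the BMP antagonist chordin. It read 8.72 and 8.81 in shControl, against 9.29 and 9.18 in shYTHDF3, so the groups did not overlap. The difference of 0.47 (SE 0.10) did not pass (limma adjusted p = 0.0693). With an intensity trend in the variance model its adjusted p was 0.00624, and over 12 alternative settings it ran from 0.00513 to 0.260. That trend called 10.9% of all genes and 6 of the 40 members (15.0%): Bmp7, Bmp1, Fst, Tgfbr3, Id1 and Tgfbi.

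Of the secreted antagonists, 3 of 5 were tested, with 1 falling and 2 not passing, where 2.73% of all genes were called. Fst encodes follistatin, which binds activin and keeps it from its receptors. On probe set 17296344 it read 7.36 and 7.23 in shControl, against 6.14 and 6.19 in shYTHDF3, and the gap between the groups was far wider than the spread inside either. The fall of 1.13 on the log2 scale (SE 0.10, limma adjusted p = 0.0149) left 45.6% of the shControl level. This was the widest difference among the 40 members tested. Fstl3, a follistatin-like activin antagonist, read 7.09 and 7.35 against 7.42 and 7.20, with overlapping groups (difference 0.09, 95% interval -0.25 to 0.42). Chrd, which encodes chordin, read 4.53 and 4.74 against 4.75 and 4.49 (difference -0.01, interval -0.34 to 0.31). The antagonist genes Nog (noggin, 3.97 to 4.36) and Grem1 (gremlin, 3.99 to 4.21) had means that were not above background.

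Receptor kinase genes did not pass: 8 of 10 were tested, and limma called 0, where 2.73% of all genes were called. By unadjusted p under 0.05, which 22.6% of all genes passed in either direction, 1 was lower. That gene was Acvr1, a type I receptor for BMPs. It read 7.22 and 7.26 in shControl, against 6.94 and 6.92 in shYTHDF3, without overlap (difference -0.31, SE 0.09, limma adjusted p = 0.124). The type II BMP receptor gene Bmpr2 read 11.08 and 10.89 against 11.06 and 11.00, with overlapping groups. Bmpr1a, a type I BMP receptor gene, differed by 0.15 (95% interval -0.10 to 0.39). For the receptors of TGF-beta, Tgfbr1 differed by -0.21 (interval -0.53 to 0.11) and Tgfbr2 by -0.10 (interval -0.32 to 0.12). The activin receptor genes Acvr1b, Acvr2a and Acvr2b differed by -0.08, -0.09 and -0.29, each with overlapping groups. Acvr2b had the widest spread of these, its shYTHDF3 values being 5.63 and 6.09. The endothelial type I receptor gene Acvrl1 read between 3.21 and 3.53 and Bmpr1b between 2.60 and 2.78, both under background.

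Tgfbr3 was the co-receptor gene that fell. It encodes betaglycan, which presents TGF-beta ligands to the signalling receptors and also binds inhibin. On probe set 17450618 it read 8.09 and 8.21 in shControl, against 7.59 and 7.57 in shYTHDF3, all shYTHDF3 values being lower. The difference of -0.57 (SE 0.09, limma adjusted p = 0.0440) left 67.2% of the shControl level. The related co-receptor gene Eng (endoglin) read 9.32 and 9.45 against 9.39 and 9.25, with overlapping groups (difference -0.07, 95% interval -0.32 to 0.19). Bambi, whose product resembles a receptor but lacks the kinase domain, read 5.01 and 5.29 against 5.06 and 4.65. Its groups overlapped too (difference -0.30, interval -0.72 to 0.12).

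**Figure D2:**
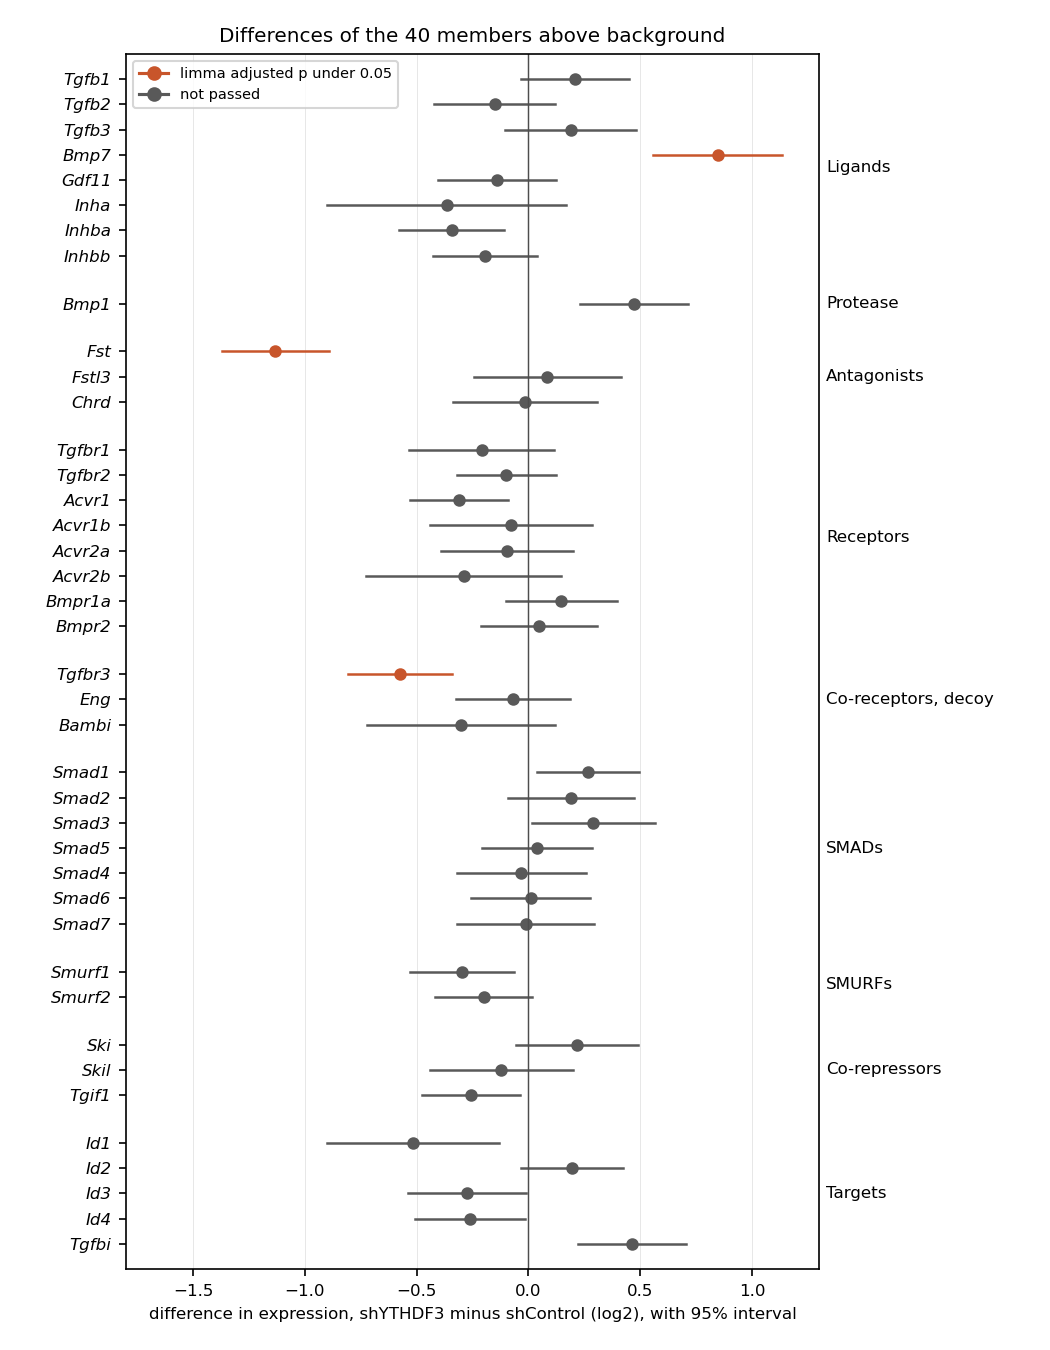
Difference in expression (shYTHDF3 minus shControl, log2, x axis) of the 40 members above background, in groups by role, with limma's 95% interval as bars and called genes in orange. Bmp7 at 0.85, Fst at -1.13 and Tgfbr3 at -0.57 passed the test, and the SMAD genes lie between -0.03 and 0.29.

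The 3 calls did not outlast every alternative setting. When an array was dropped, whichever it was, the 3 calls were lost, and so were nearly all calls over all genes. The 3 differences kept their sign, but groups that do not overlap must do so when 1 array is dropped. Over the 12 settings, the adjusted p of Bmp7 ran from 0.00336 to 0.177, that of Fst from 3.46e-04 to 0.160 and that of Tgfbr3 from 0.00366 to 0.225. The differences ran from 0.73 to 0.97 for Bmp7, from -1.20 to -1.07 for Fst and from -0.63 to -0.52 for Tgfbr3.

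SMAD genes were tested for 7 of 8, and limma called 0, where 2.73% of all genes were called. By unadjusted p under 0.05, which 22.6% of all genes passed in either direction, 2 were higher. Smad1, a BMP-activated SMAD gene, read 7.23 and 7.17 in shControl, against 7.43 and 7.50 in shYTHDF3 (difference 0.27, SE 0.09, limma adjusted p = 0.172). Smad3, an effector of TGF-beta and activin, read 8.50 and 8.50 against 8.91 and 8.67 (difference 0.29, SE 0.11, limma adjusted p = 0.203). Smad2, its close relative, differed by 0.19 (95% interval -0.09 to 0.47). In these 3 genes the groups did not overlap and the shYTHDF3 values were higher, as in 28.3% of all genes tested. Smad5 differed by 0.04 (interval -0.21 to 0.29), with overlapping groups.

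The shared partner and the inhibitory SMADs gave differences near 0. Smad4, the common partner of the receptor-activated SMADs, read 9.75 and 9.55 in shControl, against 9.70 and 9.54 in shYTHDF3 (difference -0.03, 95% interval -0.32 to 0.26). Smad6, which dampens BMP signals and is itself a BMP target, differed by 0.01 (interval -0.25 to 0.28). Smad7, which dampens TGF-beta signals and is induced by them, differed by -0.01 (interval -0.32 to 0.29). All 3 had overlapping groups, and the sign of each turned under at least 1 alternative setting. Smad9 read between 3.46 and 3.98, under background.

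Both SMURF genes were lower without overlap, as were 25.7% of all genes tested, and neither passed. Smurf1 encodes a ubiquitin ligase that targets SMADs and receptors. It read 8.37 and 8.38 in shControl, against 8.13 and 8.03 in shYTHDF3 (difference -0.30, SE 0.09, limma adjusted p = 0.146). Smurf2, its paralog, read 9.97 and 9.96 against 9.77 and 9.76 (difference -0.20, SE 0.09, limma adjusted p = 0.250). Among the nuclear co-repressors of SMADs, Tgif1 read 7.62 and 7.61 against 7.38 and 7.34 (difference -0.26, SE 0.09, limma adjusted p = 0.173). Ski differed by 0.22 (95% interval -0.06 to 0.49) and Skil, which encodes SnoN, by -0.12 (interval -0.44 to 0.20). The 3 co-repressor genes thus went both ways and did not pass.

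Target genes of the pathway were the last group of members. The Id genes encode helix-loop-helix proteins that lack a DNA-binding region and are classic BMP targets, and Tgfbi encodes a matrix protein named for its induction by TGF-beta. Id1 had no entry in RefSeq's table of upstream sequences (build GRCm38.p6). The upstream sequences of the other targets are shown for reference, and SMAD action on these stretches was not tested. They are the 250 bases before the start of Id2 (chr12:25096093-25096342, minus strand), Id3 (chr4:136143572-136143821, plus strand), Id4 (chr13:48260866-48261115, plus strand) and Tgfbi (chr13:56609336-56609585, plus strand), each 5' to 3' along the gene. Capitals mark the SMAD-binding letters GTCTG, searched on both strands, and the palindrome GGCGCC, known from BMP-responsive elements; no matches overlapped.
Id2: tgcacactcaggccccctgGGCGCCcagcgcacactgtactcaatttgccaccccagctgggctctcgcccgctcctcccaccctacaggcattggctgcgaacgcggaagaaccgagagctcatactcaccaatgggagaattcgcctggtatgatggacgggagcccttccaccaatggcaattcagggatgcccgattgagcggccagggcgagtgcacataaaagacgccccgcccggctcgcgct
Id3: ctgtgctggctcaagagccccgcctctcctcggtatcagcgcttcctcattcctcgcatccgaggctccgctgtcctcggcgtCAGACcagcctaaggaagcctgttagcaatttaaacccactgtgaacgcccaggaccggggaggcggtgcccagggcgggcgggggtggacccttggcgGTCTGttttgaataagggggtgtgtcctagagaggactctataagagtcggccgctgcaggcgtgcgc
Id4: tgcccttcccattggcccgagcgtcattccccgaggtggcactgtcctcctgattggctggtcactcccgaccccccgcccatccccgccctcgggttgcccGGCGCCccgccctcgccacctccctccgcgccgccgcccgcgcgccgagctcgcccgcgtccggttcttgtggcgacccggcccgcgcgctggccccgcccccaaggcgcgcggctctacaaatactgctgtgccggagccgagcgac
Tgfbi: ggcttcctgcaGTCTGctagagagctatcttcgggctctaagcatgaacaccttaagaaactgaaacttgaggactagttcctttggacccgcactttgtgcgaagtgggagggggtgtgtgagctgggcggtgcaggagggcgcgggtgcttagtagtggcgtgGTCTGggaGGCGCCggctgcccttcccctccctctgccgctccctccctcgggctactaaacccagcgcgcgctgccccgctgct

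Over all 32851 windows of this length in the table, 42.2% held GTCTG on either strand and 9.59% held GGCGCC. Id3 held GTCTG at 2 places and no GGCGCC. Id2 and Id4 held GGCGCC at 1 place each and no GTCTG. Tgfbi held GTCTG at 2 places and GGCGCC at 1. A match describes letters, not a bound site.

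Limma called 0 of the 5 target genes. All 5 had groups that did not overlap, which 54.0% of all genes tested shared, and by unadjusted p under 0.05, which 22.6% of all genes passed, 1 was higher and 3 were lower. Id1 read 7.65 and 7.22 in shControl, against 6.88 and 6.95 in shYTHDF3 (difference -0.52, SE 0.16, limma adjusted p = 0.137). The spread between its shControl arrays was close to the size of the difference, which was -0.30 without shControl replicate 1 and -0.73 without shControl replicate 2. Id3 read 6.78 and 6.87 against 6.64 and 6.46 (difference -0.27, SE 0.11, limma adjusted p = 0.209). Id4 read 5.21 and 5.36 against 5.04 and 5.00 (difference -0.26, SE 0.10, limma adjusted p = 0.202).

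Id2 and Tgfbi stood on the other side. Id2 read 7.20 and 7.22 in shControl, against 7.45 and 7.36 in shYTHDF3 (difference 0.19, SE 0.09, limma adjusted p = 0.280). Tgfbi read 6.08 and 6.03 against 6.45 and 6.59, a difference of 0.46 (SE 0.10, limma adjusted p = 0.0704). With the intensity trend the adjusted p was 0.0426 for Tgfbi and 0.0469 for Id1. Over the 12 alternative settings it ran from 0.0392 to 0.317 for Tgfbi and from 0.0391 to 0.351 for Id1.

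**Figure D3:**
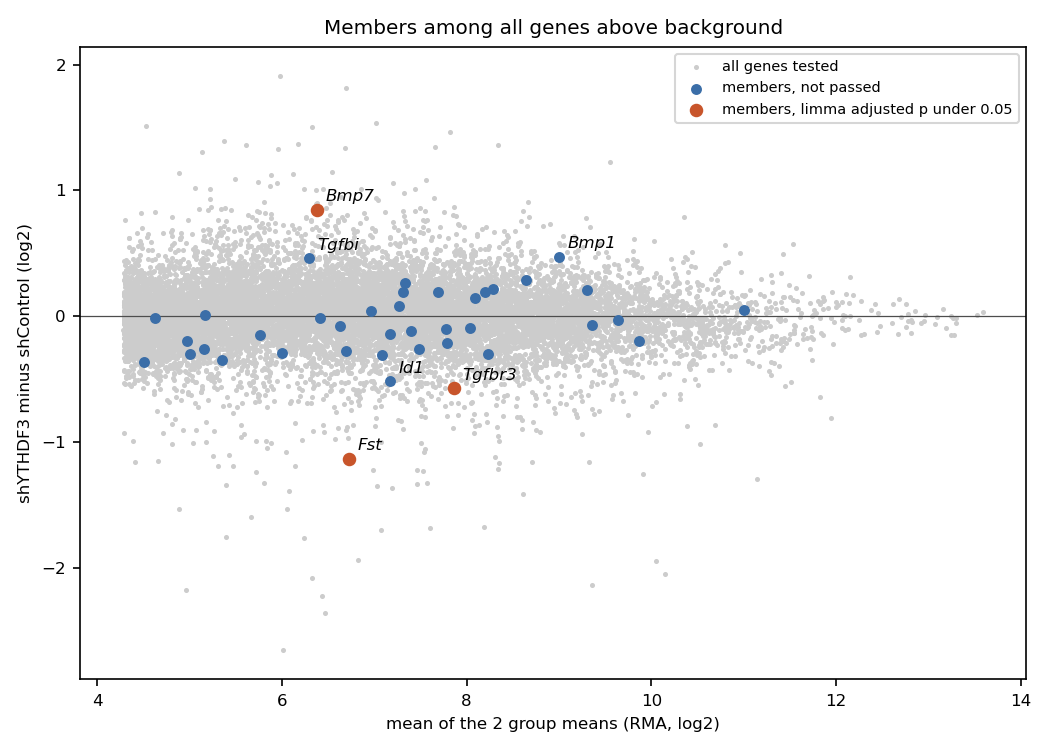
Difference (shYTHDF3 minus shControl, log2, y axis) against the mean of both group means (RMA, log2, x axis) for all 13056 genes tested (grey) and the 40 members (blue, or orange where called). Fst at -1.13 and Bmp7 at 0.85 lie outside most of the grey cloud, other genes lie farther out, and most members lie inside it.

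A further 90 genes of the pathway were listed by role, and 57 of the 83 with a probe set were tested. Of these 57, 1 fell and 56 did not pass (1.75% called, against 2.73% of all genes). The faller was Fn1, the fibronectin gene, a matrix target of TGF-beta, which read 12.33 and 12.38 in shControl, against 11.59 and 11.50 in shYTHDF3 (difference -0.81, SE 0.09, limma adjusted p = 0.0262). Its adjusted p ran from 3.61e-05 to 0.177 over the 12 settings. Groups did not overlap in 33 of the 57 (57.9%, near the 54.0% of all genes), 18 higher and 15 lower, and the median difference was -0.02. Of the 13 targets among the 57, 1 was higher and 4, with Fn1, were lower by limma's unadjusted p under 0.05. That threshold was passed by 22.6% of all genes.

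Outside the targets, limma called 0 of these genes; by unadjusted p under 0.05, which 22.6% of all genes passed, the 9 latency and activation genes counted 3 each way, the 21 intracellular ones 1 higher and 2 lower, the 4 antagonists and modulators 1 each way, and the ligands and receptors 0. The gene with the widest difference in each of those roles follows. Ltbp4, which encodes a latent TGF-beta binding protein, read 6.86 and 7.07 in shControl, against 7.48 and 7.58 in shYTHDF3 (difference 0.56, SE 0.11, limma adjusted p = 0.0610). Pmepa1, a TGF-beta-induced gene whose product restrains SMAD signalling, read 6.48 and 6.43 against 6.07 and 6.05 (difference -0.40, SE 0.09, limma adjusted p = 0.0799). Fstl1, a follistatin-like gene, differed by -0.33 (SE 0.12), the BMP co-receptor gene Rgmb by -0.12 (SE 0.10) and the ligand gene Gdf2 by -0.17 (SE 0.15). The shYTHDF3 mean of Gdf2, 4.25, lay under the background level, and set to that level its difference was -0.13, smaller in size than that of the ligand gene Bmp3 (0.15, SE 0.10), chosen after its values were seen.

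**Figure D4:**
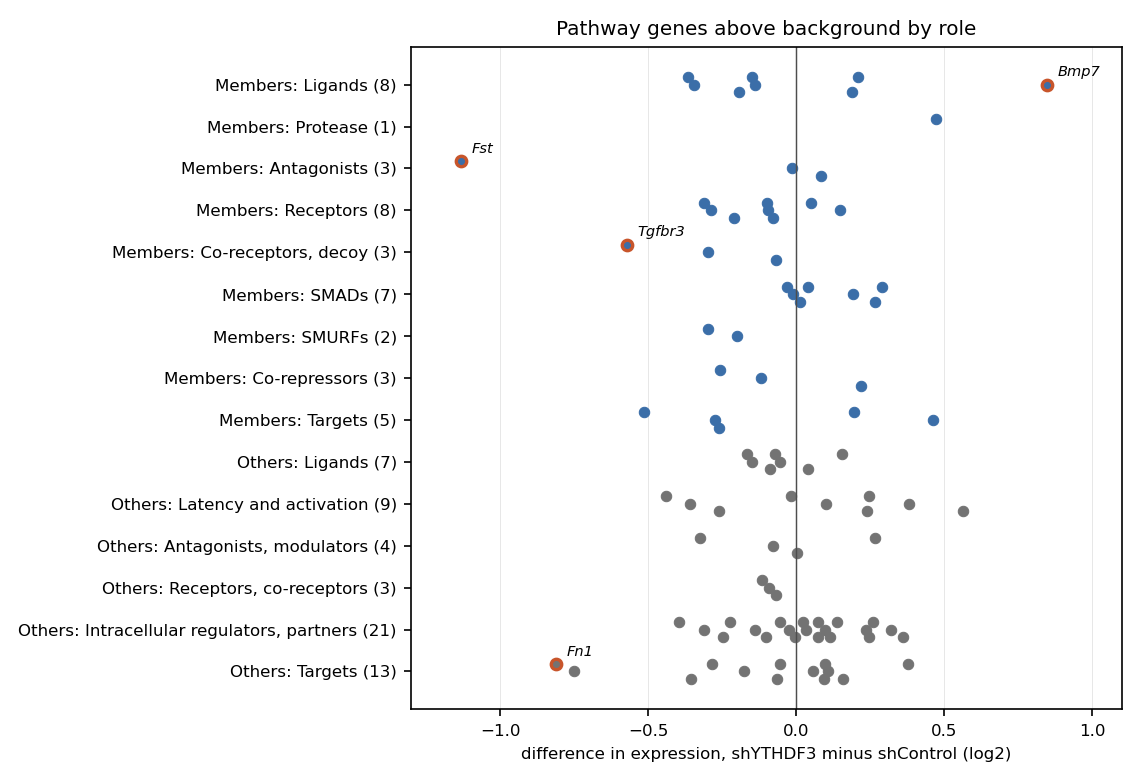
Difference in expression (shYTHDF3 minus shControl, log2, x axis) of every pathway gene above background, 1 dot each, for members (blue) and the other listed genes (grey) by role, with the number of genes in brackets and called genes ringed. The ringed genes are Bmp7, Fst, Tgfbr3 and Fn1; dots are spread vertically within a row only to keep them apart.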

How the data were processed

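Gene expression was measured on 4 arrays, 2 with shControl and 2 with shYTHDF3, grouped by their titles. The deposited values are log2 expression values that the authors made with RMA, per the submitters' processing notes; its version and the log base were not stated, and log2 was assumed as RMA's usual scale. RMA makes the arrays' distributions alike, so a shift of most genes would not be seen.

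Of 41345 probe sets, 23521 had 1 symbol in the platform annotation, 1814 several and 16010 none; 23328 took the current RefSeq symbol by Entrez identifier and 193 kept the annotation's. Probe sets with several symbols were left unnamed. A gene with several probe sets took the one with the highest mean. Background was set from 1108 olfactory receptor probe sets, at the 95th percentile of their averages over the 4 arrays.

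The test was limma 3.58.1 (lmFit and eBayes, two-sided, R 4.3.3) on all 4 arrays, p-values being adjusted by Benjamini and Hochberg's method across all 13056 genes and called under 0.05; intervals use its moderated degrees of freedom. The step was tested on simulated data. All members were accounted for. Values on each array are given for members past the threshold, for those without overlap and a difference of at least 0.5, and for others where roles are compared. Other pathway genes were named where they passed or, with none in a role, for the widest difference. The members and lists were chosen with earlier results of these data known. Alternatives changed the filter, the variance model, the normalization, the probe set rule and the block, or left out 1 array; a lone array was then assumed to vary like the other group. Figures used matplotlib 3.10.9 in Python 3.11.15. Sequences are RefSeq's, which held promoters for 36 of the 50 members.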

Additional observations from a re-analysis of the deposited data

How the results depend on the processing

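Of 480 member differences under the 12 alternatives, 438 kept their direction and their side of the threshold, 16 lost a call, 7 gained one and 19 changed sign. Much of this was fixed in advance. Changing the filter, the variance model or the block left each member's difference as it was. So did averaging probe sets, as each member had 1. Groups without overlap could not change sign with 1 array left out. Members called numbered 3 with a stricter filter (the median probe set), quantile normalization once more, a common median and the mean of all probe sets. They numbered 1 (Fst) without a filter, 6 with an intensity trend and 7 with its robust form, which added Smurf1 (limma adjusted p = 0.0493). The other pathway genes called numbered 0 without a filter, 10 with either trend, 2 with a common median and 0 with the replicate block, against 1. Over all genes the share called was 0.19% without a filter, 10.9% with the trend and 11.2% with its robust form. It was 0.39% with the replicate block and 2.98% to 3.92% under the alternatives with 3 members called, against 2.73% in the main fit. With 1 array left out, the calls among members and other pathway genes were lost, as were nearly all calls over all genes. Such a fit has fewer residual degrees of freedom. The Ythdf3 difference then ran from -0.79 to -0.63 (limma adjusted p up to 0.188) and did not pass without a filter (-0.71, adjusted p = 0.0866).

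The replicate number as a block left 1 member called (Fst) and ended the Bmp7, Tgfbr3, Fn1 and Ythdf3 calls (limma adjusted p of 0.0692, 0.0979, 0.0724 and 0.0758, the last at -0.71), with 51 genes called against 356. In the labels, arrays with the same number are linked by that number alone. The deviations of shControl 1 and shYTHDF3 1 from their group means correlated at -0.066 over 13056 genes. With so few arrays per group, this value cannot decide whether same-numbered arrays shared anything else, which was not tested.

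Signs turned only for small differences. With quantile normalization once more Chrd was 0.0039 and Smad4 0.012, and with a common median Chrd was 0.0062 and Smad7 0.0087. With 1 array left out the range was -0.046 to 0.22 for Fstl3, -0.14 to 0.11 for Chrd, -0.23 to 0.042 for Acvr2a, -0.28 to 0.12 for Acvr1b, -0.044 to 0.14 for Bmpr2, -0.13 to 0.069 for Smad4, -0.040 to 0.12 for Smad5, -0.087 to 0.11 for Smad6, -0.14 to 0.12 for Smad7, -0.27 to 0.034 for Skil and -0.36 to 0.029 for Gdf2. The cause of these changes was not tested.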

Other observations

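Genes that store and release latent TGF-beta were measured as part of the other pathway genes, and 9 of 12 were above background. The genes named here were chosen after their values were seen. Ltbp3 and Ltbp4, which encode latent TGF-beta binding proteins, read higher in shYTHDF3, while their relative Ltbp1 read lower. Another relative, Ltbp2, differed by -0.02 (SE 0.09), with overlapping groups. Ltbp3 read 8.15 and 8.21 in shControl, against 8.56 and 8.56 in shYTHDF3, a difference of 0.38 (SE 0.09, limma adjusted p = 0.0861). Ltbp1 read 9.14 and 9.17 against 8.89 and 8.70, a difference of -0.36 (SE 0.10, limma adjusted p = 0.128). Thbs1, which encodes thrombospondin 1, an activator of latent TGF-beta, read 10.06 and 9.99 against 9.57 and 9.60, a difference of -0.44 (SE 0.09, limma adjusted p = 0.0693). The groups did not overlap in Ltbp1, Ltbp3, Ltbp4 or Thbs1, as in 54.0% of all genes tested, and none of the genes named here passed the test. With an intensity trend, which called 10.9% of all genes, 5 of the 9 passed, 2 higher and 3 lower; over the 12 settings the adjusted p ran from 0.0149 to 0.328 for Ltbp3, from 0.0234 to 0.452 for Ltbp1 and from 0.00356 to 0.277 for Thbs1.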
